A study of Hydra viridissima with 4 samples.

Results

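Scaffold 14 of the green hydra Hydra viridissima has fewer open regions per Mb than any of scaffolds 1 to 13, and the 2013 open regions described here lie along it. They were found by merging the peaks of 4 ATAC-seq libraries wherever peaks shared at least 1 bp, and by keeping the merged regions between 250 kb from the scaffold's start and 250 kb before its last peak end, that is from 250001 to 9086835. These 2013 regions are 1.71% of the 117973 merged regions of all scaffolds. Scaffold 14 was chosen by its measured density of regions, which is low, so densities, gaps and window counts are a description and were not tested. No source used here names the genome assembly, and positions count from 1 on the scaffolds named in the deposited lists.

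Green hydra is a freshwater polyp that houses unicellular green algae inside the cells of its gut lining. All 4 libraries came from H. viridissima clone 2, each from the dissociated cells of 50 large whole animals without buds or gonads that had been kept with penicillin and streptomycin. Libraries of both replicates were made from aposymbiotic animals, which lack the algae, and from green/symbiotic animals, which hold them, giving 2 libraries per group. Where a pair of values is given for a condition, the first is replicate 1 and the second replicate 2. Both groups are 1 clone and each library is a pool of animals, so the spread between libraries is not a spread between individuals.

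ATAC-seq uses the transposase Tn5, which inserts sequencing adapters where DNA is not wrapped tightly in nucleosomes. Sites that gather many insertions over a short distance are called as peaks, and in animal genomes they are typically promoters, enhancers and other regulatory DNA. Such sites are unevenly spread along chromosomes, with gene-rich stretches holding many and compacted chromatin few. Peaks from whole animals mix all cell types, so a weaker peak cannot be told apart from a peak that fewer cells carry.

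The lists differed far more between replicate numbers than between conditions. The aposymbiotic lists held 21481 and 78594 peaks and the symbiotic lists 31072 and 87128. The genome-wide background under a peak, recovered from the deposited values, was 9.39 and 16.69 tags in aposymbiotic and 6.80 and 13.46 tags in symbiotic lists. Fold enrichment divides the tags at a summit by this background or by a higher local one. At the genome-wide background, equal tags thus give a higher fold in the symbiotic list of each replicate. Total read numbers are unknown. Peak names carry date-like tags that lie close together within a replicate number and put the symbiotic library later in both, so whatever these tags mark and the condition cannot be told apart.

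Open regions were not thinly spread over scaffold 14 but divided into a nearly empty first part and a second part of ordinary density. The longest gap between neighbouring regions, 604 kb from 4184013 to 4787586, separates them. Only 51 of the 2013 regions lay before this gap, in 3.93 Mb or 44.5% of the length considered, which is 12.96 regions per Mb. The other 1962 regions lay in the 4.30 Mb after it, at 456 regions per Mb. Without symbiotic replicate 2, 27 regions lay before it. The division at this gap was chosen after the values were seen. Scaffolds 5, 6, 9 and 10 had longer longest gaps, from 611409 to 934838 bp. Without aposymbiotic replicate 2 the longest gap of scaffold 14 was 741 kb and started at 3039762, inside the first part.

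Windows of 500 kb show the same step. Counted from the first window at 250001, the 9 windows up to 4750000 held 10, 6, 4, 9, 14, 1, 3, 4 and 0 regions. The next 8 full windows held 136, 218, 109, 296, 313, 244, 293 and 161, and the last 337 kb held 192. No window had a count between 14 and 109, so density changed in 1 step between neighbouring windows. The 3 densest windows began at 6750001 with 313 regions, at 6250001 with 296 and at 7750001 with 293. The 3 sparsest began at 4250001 with no region in any library, at 2750001 with 1 and at 3250001 with 3.

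**Figure D1:**
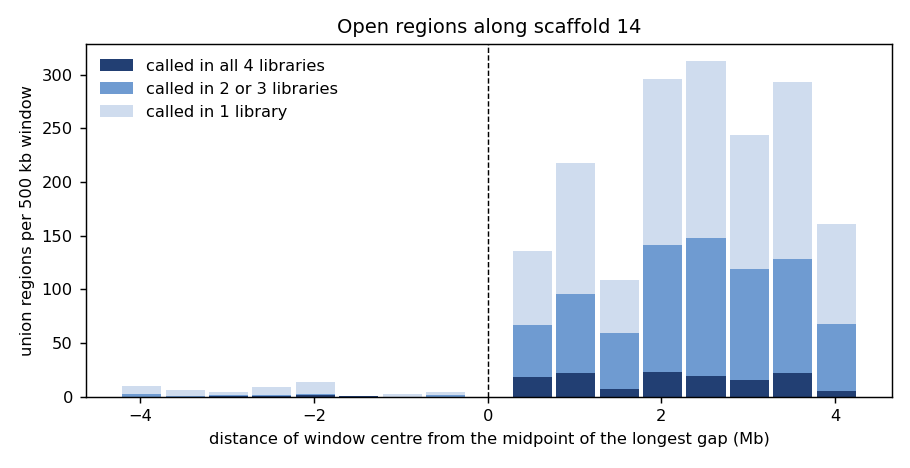
Number of merged open regions in each full 500 kb window of scaffold 14, plotted against the distance in Mb of the window's centre from the midpoint of the longest gap (dashed line). Colours show in how many libraries a region was called. The 9 windows to the left hold at most 14 regions and the 8 to the right at least 109.

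Read as a whole, scaffold 14 had 228 regions per Mb, 0.483 times the median of 471 over scaffolds 2 to 13, whose lowest value was 345 on scaffold 5 and whose highest was 538 on scaffold 3. Without the windows of under 20 regions, scaffold 14 had 442.5 regions per Mb, against a median of 492 and a range of 416 to 553 on scaffolds 2 to 13. Scaffolds 5 and 13 were then the 2 that lay below it. The name of a low-density scaffold therefore describes its first part, and the rest was within the range of the other scaffolds. The median distance between neighbouring regions was 824 bp after the longest gap, close to the 771.5 bp that was the median of scaffolds 2 to 13 (range 751 to 819 bp), and 30778 bp before it.

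**Figure D2:**
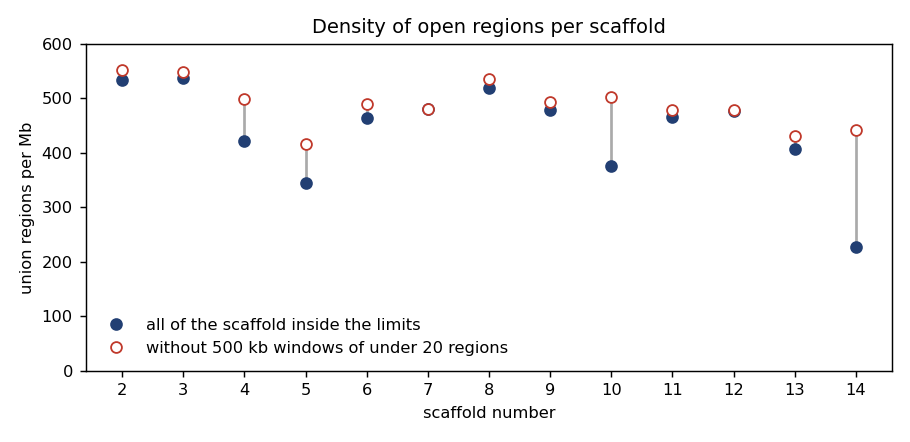
Merged open regions per Mb on scaffolds 2 to 14. Filled points use the whole scaffold inside the 250 kb limits, and open points leave out 500 kb windows with fewer than 20 regions. Scaffold 14 rises from 228 to 442.5 regions per Mb, into the range of the other scaffolds.

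Windows of under 20 regions made up 9 of the 17 full windows of scaffold 14 (52.9%), against 30 of the 428 windows of scaffolds 2 to 13 (7.01%). They occurred on 10 of those 12 scaffolds, 6 of which had a single such window, while scaffolds 4, 5 and 10 had 6, 7 and 9. On scaffold 5, where they were 17.9% of windows, the longest run was 1.5 Mb. Scaffold 10 held a run as long as that of scaffold 14, 9 windows or 4.5 Mb from 3250001 to 7750000, which also contained 51 regions. On scaffold 4, the 6 such windows or 3.0 Mb from 17250001 to 20250000 held 71 regions. A long sparse stretch was thus not unique to scaffold 14, which differed from scaffolds 2 to 13 by the share of its length that the stretch took. Scaffolds 15 to 20 were sparser as a whole than scaffold 14, from 13.5 regions per Mb on scaffold 15 to 86.8 on scaffold 19. The stretch of scaffold 14 began at the lower limit, as that of scaffold 4 ended in its last full window, while that of scaffold 10 lay inside the scaffold.

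The step was present in every library. Aposymbiotic libraries had 8 and 20 peaks before the longest gap and 321 and 1312 after it. Symbiotic libraries had 13 and 37 before and 449 and 1438 after. The first part held 2.03 and 5.08 peaks per Mb in aposymbiotic animals, and 3.30 and 9.41 in symbiotic animals. The second part held 74.7 and 305 peaks per Mb without algae and 104 and 334 with them, which is 31.6 to 60.03 times as many. The replicate 2 lists, which are the longest, were the densest on both sides, and no library reached the density of the second part in the first.

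The background around the peaks, which the choice of scaffold 14 did not use directly, also differed between the parts. The peak caller compares each summit with the larger of a genome-wide and a local background. Before the longest gap the local background equalled the genome-wide value at every peak, that is at 8 of 8 and 20 of 20 aposymbiotic and at 13 of 13 and 37 of 37 symbiotic peaks. The counts of peaks give these shares 95% exact binomial lower bounds of 63.1%, 83.2%, 75.3% and 90.5%.

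After the gap that share was 40.8% and 34.2% in the aposymbiotic lists and 41.4% and 35.2% in the symbiotic lists. The difference was 62.1 percentage points ± 3.73 (SD, n = 4 libraries), positive in 4 of 4 libraries. It was not tested, since the division was chosen with the values in view. Sparse windows of scaffolds 2 to 13 gave 93.5% to 96.5%, and their other windows 29.4% to 38.5%. Around the called peaks of the first part, the local tag level was thus no higher than the genome-wide background in all 4 libraries. Density and local background both follow the number of tags nearby and are not independent measures. Sequence without a peak has no value in the lists. Without a genome, repeats and assembly gaps could not be examined, and why the first part holds few peaks was not tested.

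**Figure D3:**
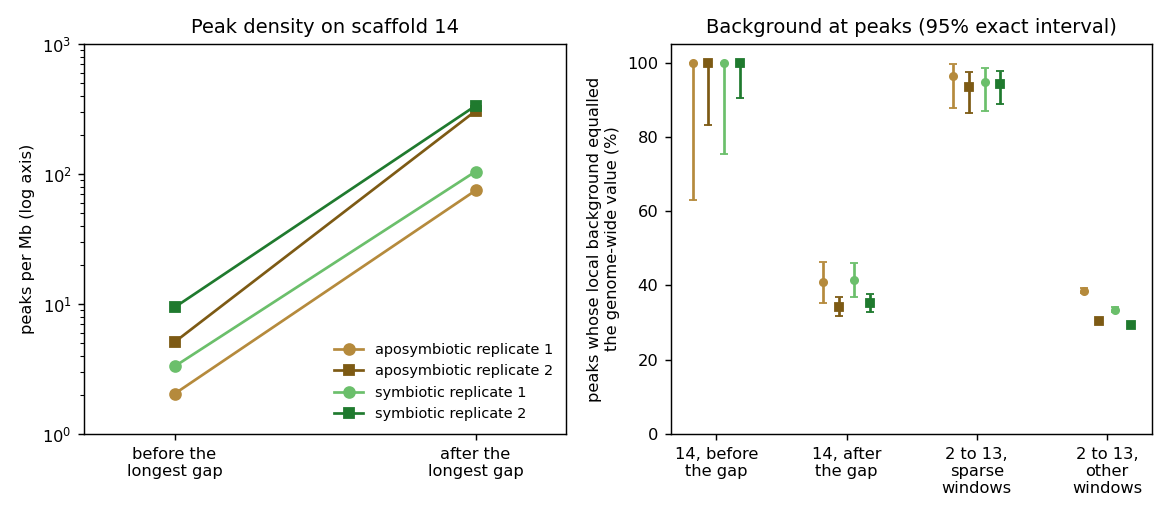
Left, peaks per Mb (log axis) before and after the longest gap of scaffold 14 in each of the 4 libraries. Right, percent of peaks whose local background equalled the genome-wide value, with 95% exact binomial intervals that cover counting error only. It was 100% before the gap and 34.2% to 41.4% after it.

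Most of the 51 regions of the first part were seen in 1 library. A single library called 37 of them (72.5%, 95% exact binomial interval 58.3% to 84.1%), against 53.4% (51.1% to 55.6%) after the gap. Symbiotic replicate 2 alone accounted for 24 of the 51 (47.1%, 32.9% to 61.5%), against 28.1% after the gap and 26.4% on scaffolds 2 to 13. Intervals treat regions as independent and cover counting error only.

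In the first part 5 regions were called in all 4 libraries, and they are named here although most fall outside the rule for naming and were chosen after their values were seen. The strongest, at 3039457 to 3039761, had a fold enrichment over background of 5.77 and 6.22 without algae, and 11.4 and 9.06 with them. These are the peak caller's own values for each list, and they correspond to 59 and 109 tags at the aposymbiotic and 88 and 130 at the symbiotic summits. It was the only region of its window, with gaps of 356 kb before it and 324 kb after it, which follow the 604 kb gap as the longest of the scaffold. It was also among the 10 strongest shared regions of the whole scaffold.

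The region at 2049738 to 2049980 had folds of 6.16 and 3.28 in aposymbiotic animals. In symbiotic animals it had 12.3 and 3.74, so replicate 1 had the higher fold in both conditions. At 1734804 to 1734987 the folds were 4.72 and 3.90 in aposymbiotic and 6.66 and 5.60 in symbiotic animals. Its neighbour on the side of the scaffold start, at 1731598 to 1731746, was called in 3 libraries, with 3.37 and 2.66 in the aposymbiotic pair and 4.84 in symbiotic replicate 2. The other 2 fully shared regions were weaker. At 2252303 to 2252443 folds were 4.33 and 3.05 in aposymbiotic and 2.69 and 2.77 in symbiotic animals. At 2626987 to 2627216 they were 2.21 and 2.83 in aposymbiotic and 2.43 and 1.94 in symbiotic animals, which in 3 libraries is near the weakest calls (percentiles of 8.49 to 14.2) and in aposymbiotic replicate 2 among the stronger ones (percentile 85.3). The other 2 regions called in 3 libraries lay at 454676 to 454816 and at 4183906 to 4184012, the last one before the longest gap.

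Where the few peaks of the first part stood in the strength order of their own list differed by library. Their median within-list percentile of fold enrichment was 84.6 and 81.6 in aposymbiotic animals, against 65.8 and 39.0 in symbiotic animals. After the gap it was 54.2 and 50.8 without algae and 49.8 and 51.8 with them. The first part was higher in 3 of 4 libraries and lower in symbiotic replicate 2, which called the most peaks there. Other sparse places were similar, with symbiotic replicate 2 again the lowest. Scaffolds 15 to 20 had 72.3 and 71.2 in aposymbiotic and 65.8 and 44.1 in symbiotic animals. Sparse windows of scaffolds 2 to 13 had 79.4 and 72.7 in aposymbiotic and 81.2 and 57.85 in symbiotic animals. Peaks of the first part were narrower in 4 of 4 libraries, with median widths of 131 and 116 bp in aposymbiotic animals against 165 and 149 bp after the gap. In symbiotic animals they were 118 and 137 bp before and 133 and 158 bp after it. The mean log2 ratio of width was -0.27. On scaffolds 15 to 20 median widths were 148 and 128 bp in aposymbiotic and 135 and 137 bp in symbiotic animals. In sparse windows of scaffolds 2 to 13 they were 171 and 136.5 bp in aposymbiotic and 133.5 and 124.5 bp in symbiotic animals.

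The question of the study is which regions are accessible with and without algae. Scaffold 14 took nearly the same share of the peaks in both conditions. It held 1.53% and 1.69% of all aposymbiotic peaks and 1.49% and 1.69% of all symbiotic peaks. Group means were 1.61% ± 0.115 (SD, n = 2) and 1.59% ± 0.146 (SD, n = 2), a difference smaller than the spread between replicates (two-sided exact permutation p = 0.667 for a log2 ratio of -0.02, and the test cannot go below 0.33). Per Mb, each library had between 0.415 and 0.480 times as many peaks on scaffold 14 as on the median of scaffolds 2 to 13.

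Of the peaks on scaffold 14, the first part took 2.43% and 1.5% in aposymbiotic and 2.81% and 2.51% in symbiotic animals. The 2 groups did not overlap, with means of 1.97% ± 0.658 and 2.66% ± 0.216 (SD, n = 2 each) and a log2 ratio of 0.48, which was not tested. The 95% exact intervals of the 4 shares overlapped, the outermost running from 0.9195% to 4.76%. The log2 ratio was 0.82 without aposymbiotic replicate 1 and 0.13 without aposymbiotic replicate 2. With lists of equal length it was 0.022, and with only peaks of a -log10 q of at least 5 it turned to -0.15. In symbiotic replicate 2, 37 peaks against 20 in aposymbiotic replicate 2 gave a ratio of 1.85 (95% exact interval 1.05 to 3.36), and in replicate 1 the ratio was 1.63 (0.624 to 4.52). After the gap the ratios were 1.10 in replicate 2 and 1.40 in replicate 1, near the 1.11 and 1.45 of the whole lists. Both intervals of the first part include the whole-list ratio of their replicate. They cover counting error only and not the spread between libraries.

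Other sparse places gave ratios on both sides of these. The run of scaffold 4 had 1.61 and 1.71 in replicates 1 and 2, the run of scaffold 10 had 1.29 and 1.37, and the thinly covered scaffolds 15 to 20 had 1.70 and 2.02. In replicate 2 all 4 sparse places lay above the whole lists, and in replicate 1 the run of scaffold 10 lay below. All sparse windows of scaffolds 2 to 13 together had 1.33 and 1.35, below the whole lists in replicate 1 and above them in replicate 2.

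**Figure D4:**
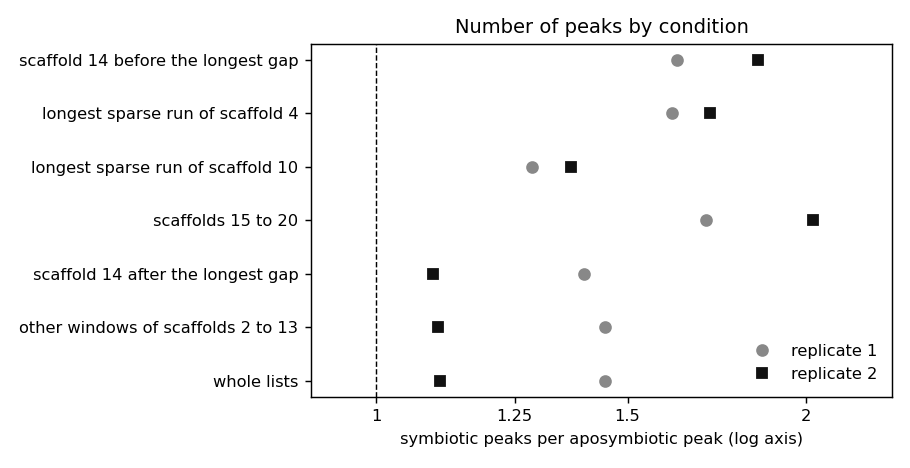
Number of symbiotic peaks for each aposymbiotic peak (log axis) within replicate 1 (circles) and replicate 2 (squares), for the parts of scaffold 14, other sparse places and the whole lists. Before the longest gap the ratios are 1.63 and 1.85, and after it 1.40 and 1.10.

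A region was assigned to 1 condition when both of its libraries called it and both libraries of the other did not. Scaffold 14 held 51 symbiotic regions, 2.53% of its 2013 (95% exact binomial interval 1.89% to 3.32%), where 3.14% of all merged regions met the same rule. It held 25 aposymbiotic regions, 1.24% (0.805% to 1.83%), against 1.02% of all. Both shares were near the background and their intervals include it. Without a test, the symbiotic share lay below the 2.86% to 3.58% of scaffolds 2 to 13. The aposymbiotic share lay above their 0.87% to 1.19%. Symbiotic regions were 67.1% of the 76 (55.4% to 77.5%), below the 71.5% to 78.3% of scaffolds 2 to 13, whose median of 74.7% lies within the interval. These counts depend on which lists are used. Symbiotic regions numbered 631 without symbiotic replicate 1, 206 without aposymbiotic replicate 2 and 110 without symbiotic replicate 2. Aposymbiotic regions numbered 459 without aposymbiotic replicate 1, 104 without symbiotic replicate 2 and 57 without aposymbiotic replicate 2. Before the longest gap there were 2 symbiotic regions, at 596258 to 596462 and 656455 to 656688, and no aposymbiotic region among 51. With 3 counts as an approximate one-sided 95% upper bound, not an exact one, the aposymbiotic share could be up to 5.88%.

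After the gap 12 of 296 regions were symbiotic in the window beginning at 6250001 and 12 of 293 in that at 7750001. The window at 4750001 had 7 of 136, and the other full windows at most 4. The first 2 were among the 3 densest windows, and the densest, at 6750001, had 3 of 313. Of all merged regions 3.14% met the symbiotic and 1.02% the aposymbiotic rule, and differences between windows were not tested. Aposymbiotic regions numbered at most 5 in any window. The strongest symbiotic region by its lower percentile, at 6193253 to 6193442, had folds of 4.01 and 3.26, from 34 and 56 tags. At 6864140 to 6864407 the folds were 3.80 and 3.27. Another lay at 6500679 to 6500768, with 4.03 and 2.98. The remaining 2 named regions, at 6648679 to 6649340 and 6666551 to 6666664, shared a fold of 3.46 in replicate 1 and had 3.18 and 4.01 in replicate 2. All 5 named symbiotic regions thus lay between 6193253 and 6864407.

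By the same measure the strongest aposymbiotic region was at 8255294 to 8255699, with folds of 4.22 and 3.11, from 44 and 57 tags. Next came 5649336 to 5649610 with 3.39 and 2.82, and 6810026 to 6810264 with 3.03 and 2.69. The last 2 named regions were at 8911692 to 8911889, with 2.79 and 2.95, and at 6824061 to 6824340, with 2.75 and 2.46. The named regions of 1 condition had folds of at most 4.22, under the 11.3 to 18.03 of the strongest shared region. Both sets were picked by percentile, and a region of 1 condition has to go uncalled in 2 lists, so this order follows from the choice. Single regions were not tested, because the lists are silent where they call nothing.

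Regions called in all 4 libraries numbered 152 on scaffold 14, 147 of them after the longest gap. They made up 7.55% of its regions (95% exact binomial interval 6.43% to 8.79%), under the 8.12% to 9.37% of scaffolds 2 to 13, whose median of 8.71% lies within the interval. With 1 library left out, regions called in the other 3 made up 9.77% to 15.4%. The 152 were wider than regions of 1 library, with median widths of 384.5 against 122 bp, and merging can widen a region with each list that joins it. Their folds ran from 2.15 to 11.3 and from 1.73 to 14.2 in the aposymbiotic pair, with medians of 3.05 and 2.999. In the symbiotic pair they ran from 2.20 to 18.03 and from 1.85 to 16.96, with medians of 3.45 and 3.37. Across these 152 regions the order of folds was alike in all pairs of libraries, with Spearman's rho of 0.696 between the aposymbiotic and 0.689 between the symbiotic libraries, and 0.516 to 0.668 between the other pairs. The regions share their sequence and their neighbours, so these coefficients are a description.

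The strongest shared region lay at 4952045 to 4952624, in the first window after the longest gap, and had the highest fold of scaffold 14 in every list. Its folds were 11.3 and 14.2 without algae, from 123 and 250 tags, and 18.03 and 16.96 with them, from 154 and 255 tags. At 6256911 to 6257380 they were 10.4 and 12.4 in aposymbiotic and 12.2 and 10.4 in symbiotic animals. The region at 7674764 to 7675178 had 9.95 and 8.37 in aposymbiotic and 13.8 and 11.3 in symbiotic animals. At 7049677 to 7050507 all 4 folds were close, from 10.2 to 10.8. Fold enrichments of separately called lists were not tested between conditions. Within each replicate the symbiotic list has the lower genome-wide background, which raises its folds at equal tags.

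The named shared regions at 7411390 to 7411774 and 7822249 to 7822667 had their lowest fold, 7.08 and 7.06, in aposymbiotic replicate 1. Their highest were 11.7 in symbiotic replicate 1 and 9.08 in symbiotic replicate 2. At 5203070 to 5203524 the order was the other way, with 8.95 and 10.00 in aposymbiotic and 7.94 and 8.58 in symbiotic animals. The regions at 5096375 to 5096519 and 4803558 to 4803850 had folds of 3.79 to 7.56. Of the 10 named shared regions, 4 thus lay in the first dense window, from 4750001 to 5250000. There 18 of 136 regions (13.2%, 95% exact binomial interval 8.04% to 20.1%) were called in all libraries. The share was 7.49% over all regions after the longest gap and 7.55% over all 2013 regions. This window was picked with the values in view, its interval treats regions as independent, and the difference was not tested.

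The 3 widest shared regions were also on the dense side, at 7261869 to 7263572, 8208766 to 8210440 and 7328271 to 7329759, spanning 1704, 1675 and 1489 bp. The first was among the weaker peaks of aposymbiotic replicate 1, with a fold of 2.21, and reached 3.72 to 3.94 in the other libraries. The second had 4.72 and 3.79 in aposymbiotic and 7.82 and 4.22 in symbiotic animals. The third had 4.14 and 3.39 against 4.23 and 4.90. Over all 2013 regions widths ran from 78 to 1704 bp with a median of 163 bp, and 98 regions were wider than 500 bp.

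The dense side was not uniform. A gap of 235 kb, from 5792924 to 6027489, was the only one over 100 kb after the longest gap and fell in the window with 109 regions. The window beginning at 8250001 had the fewest shared regions of all dense windows, 5 of 161. In the last 337 kb the density was 570 regions per Mb, above the other windows except those at 6250001, 6750001 and 7750001.

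Peak strength on scaffold 14 as a whole was close to that of scaffolds 2 to 13. The median percentile of fold was 54.2 and 50.95 in aposymbiotic animals, against 48.4 and 50.1 as the medians of scaffolds 2 to 13. In symbiotic animals it was 50.1 and 51.1, against 49.6 and 50.3. It was higher in 4 of 4 libraries by 1.98 percentage points ± 2.53 (SD, n = 4 libraries, two-sided exact sign-flip permutation p = 0.13, the smallest possible), and the difference turned to -0.27 with a -log10 q of at least 5. Aposymbiotic replicate 1 alone lay above the highest of the 12 scaffolds, 52.4. Median peak widths were 163 and 148 bp in aposymbiotic animals, against 157 and 149 bp on the other scaffolds, and 132 and 158 bp in symbiotic animals, against 137 and 165 bp. Their mean log2 ratio was -0.02 (two-sided exact sign-flip permutation p = 0.375).

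Of the 12 overlaps between lists, 7 were lower on scaffold 14 than on each of scaffolds 2 to 13 and 2 were higher than on each of them, all by small margins and without a test. Of 320 regions called in aposymbiotic replicate 1, 82.2% were also called in aposymbiotic replicate 2 (75.1% to 81.9% on scaffolds 2 to 13) and 80.9% in symbiotic replicate 2. Of 442 called in symbiotic replicate 1, 81.9% were called in its symbiotic counterpart and 75.6% in aposymbiotic replicate 2 (66.7% to 75.2% elsewhere). Aposymbiotic replicate 2 called 1281 regions, of which 62.0% were called in symbiotic replicate 2, against 63.1% to 64.6% on scaffolds 2 to 13. Symbiotic replicate 2 called 1448, of which 54.8% were called in aposymbiotic replicate 2, against 55.6% to 58.5%, and 25.0% in symbiotic replicate 1, against 26.6% to 29.5%. A long list covers more of a short one, which sets the order of these shares.

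At the limits of the described stretch, the first region inside was at 375489 to 375582, called in aposymbiotic replicate 2 alone. The nearest outside it, at 223446 to 223593, was called in all 4 libraries with folds of 2.09 to 2.89. At the far end the last region inside was at 9086651 to 9086805 and the first outside at 9086913 to 9087092, both called in symbiotic replicate 2 alone. The excluded ends held 2 regions at the start and 124 at the end of the scaffold, so the contrast between its sides extends to both ends.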

How the data were processed

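Peak lists of 4 ATAC-seq libraries were analysed. The submitters' processing notes name the read trimmer Trim Galore 0.6.10, the aligner Bowtie2 2.5.4, the peak caller MACS3 3.0.4 and deepTools. Settings, assembly and annotation were not given in the sources used here. Each library has its own deposited list. Its deposited columns are the fold enrichment (a ratio of summit pileup to background), the -log10 p-value and -log10 q-value of the summit, and a score of 10 times the -log10 q. Lines that repeat a peak for further summits were joined and keep the strongest. The lowest deposited -log10 q was 2.00 in each list.

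Peaks sharing at least 1 bp were merged. Pileup and local background were solved from fold and -log10 p, with a tag being a read or fragment, and a local background within 0.05 tags of the genome-wide value was counted as equal to it. In 4977 simulated peaks 96.7% of pileups were recovered exactly. A simulation of 4000 regions gave back their number and the totals per condition. These regions lay too far apart to merge, so it did not check the merging of close neighbours. Percentiles of fold are within a list. Windows of 500 kb were counted from 250 kb onward by region start. Called conditions need both libraries of one and neither of the other.

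Tests were exact permutation tests over libraries. The members, lists and named regions were chosen with earlier results of these data known. Named regions were the 10 shared regions with the highest lowest percentile, the 5 strongest per condition by the lower percentile, the 3 widest shared regions, the 3 longest gaps, the 3 densest and sparsest windows, and regions next to the limits. Alternatives were lists cut to equal length (21481 peaks), a stricter -log10 q of 5, 200 bp summit windows, a 50 bp overlap, other end limits, 1 Mb windows, scaffold 1 as a further reference, a replicate block and leaving out each library. The limit of 20 regions per sparse window, the division at the longest gap and the values computed for its 2 sides were chosen after seeing the data. Sequences and genes were not used here. Python 3.11.15, numpy 2.4.6, pandas 2.3.3, scipy 1.17.1 and matplotlib 3.10.9 were used.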

Additional observations from a re-analysis of the deposited data

How the results depend on the processing

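The density of scaffold 14 relative to the other scaffolds stayed between 0.464 and 0.496 times their median in 11 alternatives. After the longest gap it stayed between 0.931 and 0.993 times that median. This second range compares scaffold 14 without its sparse stretch with whole scaffolds that keep their own sparse windows. With sparse windows left out of all scaffolds, the ratio was 0.899 under the main settings. The share called in every library, 7.55%, was 5.79% at a -log10 q of at least 5, 10.4% with lists of equal length and 9.77% to 15.4% when 1 library was left out, where fewer lists have to agree. The stricter q left 29 of 51 symbiotic and 12 of 25 aposymbiotic regions, and equal length gave 31 symbiotic regions. Leaving out 1 library gave 57 to 631 symbiotic and 32 to 459 aposymbiotic regions, the highest counts coming without symbiotic replicate 1 (631) and without aposymbiotic replicate 1 (459). The share of each list on scaffold 14 (log2, symbiotic minus aposymbiotic) changed sign from -0.02 to 0.00063 with no ends left out and to 0.0027 with 500 kb left out, and ran from -0.12 to 0.071 when 1 library was left out (0.071 without symbiotic replicate 1, 0.051 without aposymbiotic replicate 2); the cause was not tested. With the replicate block it was -0.0222 (exact sign-flip permutation p = 0.5, the lowest possible with 2 pairs). Over 483 windows, libraries with the same number deviated from their group means with a correlation of 0.385, and the labels do not say what same-numbered libraries share, although the date-like tags in their peak names are close.

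At a -log10 q of at least 5 the percentile difference from other scaffolds reversed to -0.27, and the log2 ratio of the share before the longest gap reversed to -0.15 (0.022 with lists of equal length); the causes were not tested. Before the gap 51 regions became 20 with the stricter q, 22 with equal lists and 27 without symbiotic replicate 2. The sparse run, 4.5 Mb, was 2.0 Mb with a limit of 10 regions per window and 4.5 Mb with a limit of 50, both chosen after seeing the data. Of 158 values under alternatives, 123 kept their direction and stayed within the replicate spread, counting interval or test side of the reported value. No genome was used here, so sequence content was not analysed, and 2 libraries per group limit every test of condition.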
